A study of Mus musculus with 6 samples.

Results

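The calmodulin-dependent protein kinases (CaM kinases) and the inhibitor proteins of CaMKII were examined in hippocampal RNA of daDREAM mice. The set comprised every probe set of the array that its platform annotation assigns to exactly 1 of the 10 genes Camk1, Camk2a, Camk2b, Camk2d, Camk2g, Camk4, Camk2n1, Camk2n2, Camkk1 and Camkk2. Of 45037 probe sets tested, 30 met this rule, and they represented 9 of the 10 genes. Camkk1 had no probe set under the rule. The genes were put together with differences of this comparison already known, in particular the low L26 values of Camk4, Camk2d and Camk2g and the disagreement between probe sets of Camk4 and of Camk2d. Their differences are therefore given as descriptions with no p-value, although the text states whether a probe set passed the threshold of the fit across the whole array.

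The samples were hippocampi of adult male mice on a C57B6xCBA background, 3 from wild type littermates and 3 from the line L26, which is homozygous for a daDREAM transgene. DREAM, the product of Kcnip3, is a calcium-binding transcriptional repressor, and daDREAM is a dominant active mutant that keeps repressing when calcium rises. The comparison asks which transcripts differ between transgenic and wild type hippocampus. Each sample was hybridized to 1 Affymetrix GeneChip Mouse Genome 430 2.0 array, and the series text calls the 3 hybridizations of a group independent biological replicates. L26 is 1 transgenic line that keeps its own Kcnip3 gene, and the promoter that drives the transgene is not given in the sources used here. Whether any probe set reads RNA of the transgene itself is not known here. The second daDREAM line in the labels, L1, was not analysed here.

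Calcium that enters a neuron binds calmodulin, and calcium-calmodulin switches on the CaM kinases. CaMKII is a large holoenzyme built from alpha, beta, gamma and delta subunits, is among the most abundant proteins of excitatory synapses, and is required for long-term potentiation in the hippocampus. CaMKK phosphorylates CaMKI and CaMKIV, and CaMKIV acts in the nucleus, where it phosphorylates the transcription factor CREB. The products of Camk2n1 and Camk2n2 bind the active form of CaMKII and block it.

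The arrays had close log2 medians, 7.27, 7.28 and 7.29 in wild type and 7.30, 7.31 and 7.32 in L26. All L26 medians were thus slightly the higher ones. Results with arrays centred on their medians are given below, and some counts moved with centring. Pairs of arrays correlated at 0.9971 to 0.9979 within a group and at 0.9944 to 0.9958 between the groups. The 2 probe sets of Kcnip3 had differences of -0.17 (SE 0.07) and -0.32 (SE 0.07) in L26 relative to wild type, and only the latter, 1449129_a_at, passed. Of the measured markers of CA1, CA3 and dentate neurons, 6 of 6, 8 of 9 and 9 of 10 had means above the median level of all probe sets (7.30). So did 10 of 11 markers of cortex and subiculum, 7 of 9 of striatum and 7 of 8 of thalamus. The count therefore cannot check the tissue label.

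In L26 hippocampus Camk4, Camk2d, Camk2g, Camk1 and Camk2n2 had probe sets that fell, Camk2a had probe sets that rose, and Camk2n1 had 1 of each. Over the 30 probe sets, 10 fell, 3 rose and 17 did not pass (limma, Benjamini-Hochberg adjusted p under 0.05 over all probe sets). Across the whole array 1.94% of probe sets fell and 1.98% rose, 3.92% in all. Leaving out wild type replicate 2 or 3 or L26 replicate 1 or 2 reduced those that fell to 6, and the probe sets concerned are named with their genes. All 3 L26 values lay below all 3 wild type values for 15 of the 30 and above them for 7, where the array as a whole had 9.32% and 12.5%. Because the genes were chosen with this comparison known, nothing is read from these shares. The median difference of the 30 was -0.14 on the log2 scale, against 0.01 over all probe sets. With each gene represented by its brightest probe set, 6 of 9 genes fell and 0 rose, where 2.57% of 18193 genes fell and 2.63% rose (5.19% in all). Without L26 replicate 2 the number of genes that fell was 3.

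Camk4 encodes CaMKIV, the nuclear kinase of the family, and showed the largest single difference and the widest disagreement of the 9 genes. Its brightest probe set, 1439843_at, read 10.59, 10.53 and 10.54 in the wild type mice and 9.42, 9.59 and 9.57 in the L26 mice. The groups were far apart relative to their spread, and the difference was -1.03 (SE 0.06), a 2.04-fold lower level. A second probe set, 1441974_at, read 7.49, 7.44 and 7.19 against 6.36, 6.58 and 6.53. It fell by 0.88 (SE 0.09) or 1.84-fold, again without overlap.

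The other 3 Camk4 probe sets did not show this fall. Probe set 1426167_a_at, whose probes match several transcripts of the gene, read 8.35, 8.46 and 8.22 in wild type and 8.56, 8.68 and 8.68 in L26. All L26 values were the higher ones, by +0.30 (SE 0.07), which did not pass. It passed as higher in 5 of the 13 alternatives run. These were without wild type replicate 2, when the difference was +0.35, without the 40% of probe sets with the lowest means, with eBayes trend and robust settings, with array weights, and at a threshold of 0.1. For 1421941_at the wild type values 7.98, 7.56 and 7.98 overlapped the L26 values 7.98, 8.26 and 7.94 (+0.22, SE 0.12). Probe set 1452572_at was nearly level, at 7.16, 7.09 and 7.10 against 7.17, 7.17 and 7.22 (+0.07, SE 0.05). The 5 differences thus spanned 1.32 log2 units. Of the 463 genes with 5 probe sets, 4, Camk4 included, had a span at least that wide (0.864%). Camk4 was chosen with this disagreement known, so nothing is read from that share. As a mean over its 5 probe sets Camk4 differed by -0.26 (SE 0.06) and still passed as lower.

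Camk2d encodes the delta subunit of CaMKII, a form made in many tissues. Of its 7 probe sets 3 fell, 0 rose and 4 did not pass. Probe set 1427763_a_at read 9.37, 9.19 and 8.91 in wild type and 8.28, 8.43 and 8.33 in L26, a fall of 0.81 (SE 0.11) or 1.75-fold. Probe set 1422659_at read 9.33, 9.05 and 8.74 against 8.21, 8.41 and 8.21, a fall of 0.76 (SE 0.13). The wild type mice differed more among themselves than the L26 mice on both probe sets (SD 0.23 and 0.30 against 0.08 and 0.12, n = 3), and wild type replicate 3 was the lowest of its group on both. The call of 1422659_at was lost without L26 replicate 3, when it stood at -0.73. The last of those that fell, 1460630_at, went from 7.54, 7.42 and 7.34 to 6.89, 6.89 and 6.94 (-0.53, SE 0.06).

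The remaining Camk2d probe sets varied. For 1439168_at the values were 7.68, 7.45 and 7.58 in wild type and 7.11, 7.39 and 7.37 in L26, without overlap but with a difference (-0.28, SE 0.09) that did not pass. Probe set 1456844_at read 5.51, 5.61 and 5.54 against 5.37, 5.23 and 5.45 (-0.20, SE 0.07), at a level brighter than only 14.7% of the array. Neither 1459457_at (+0.05, SE 0.06) nor 1444031_at (+0.05, SE 0.06) separated the groups. The latter averaged 5.12 and 5.17 and was brighter than 8.84% of probe sets. Probe sets 1456844_at and 1444031_at are both below the lower quartile of all probe sets (5.95), and the values carry no detection calls. The 7 Camk2d differences spanned 0.86 log2 units. Of the 97 genes with 7 probe sets, 2, Camk2d included, had a span at least that wide (2.06%). Camk2d too was chosen with its disagreement known, so nothing is read from that share. As a mean over its 7 probe sets Camk2d differed by -0.36 (SE 0.06) and passed as lower.

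**Figure D1:**
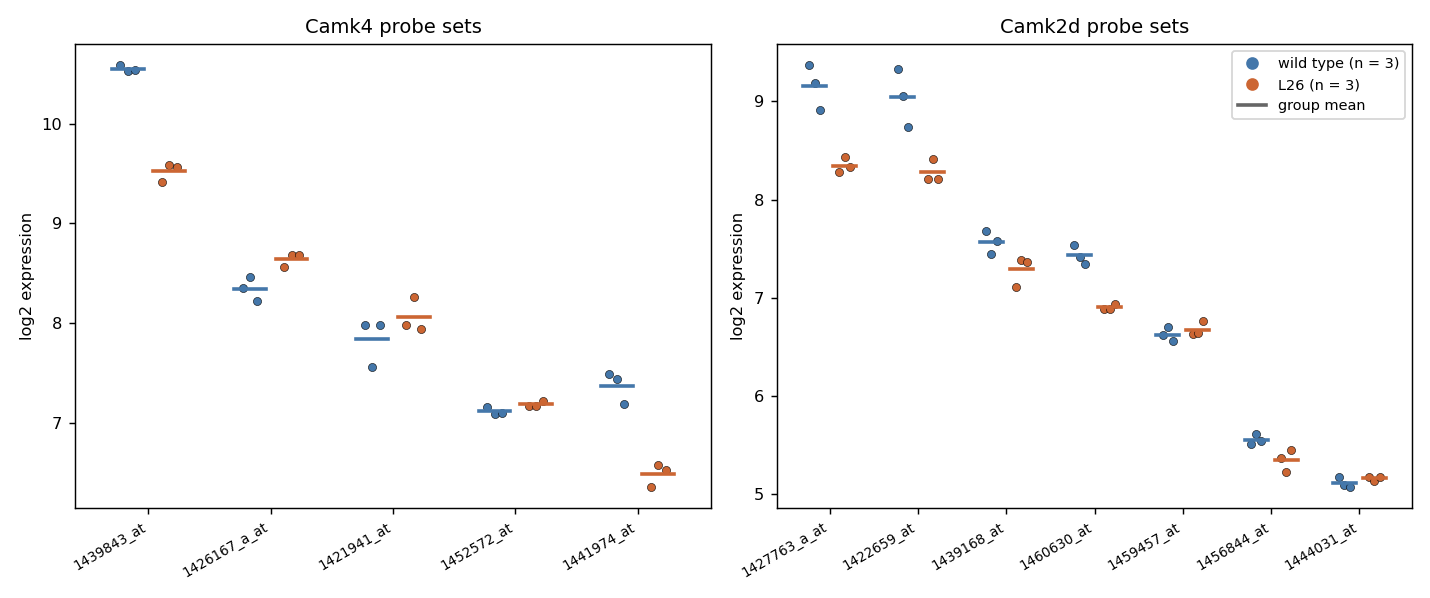
Log2 expression (vertical axis) of every Camk4 and Camk2d probe set in 3 wild type and 3 L26 hippocampi, with points for single arrays and bars for group means. The groups are apart and lower in L26 on 1439843_at and 1441974_at of Camk4 and on 1427763_a_at, 1422659_at and 1460630_at of Camk2d, while the other probe sets differ by 0.30 or less. Heights of different probe sets are not comparable.

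Camk2a, the gene of the alpha subunit that dominates CaMKII of forebrain excitatory neurons, had the opposite sign. All 6 of its probe sets had a higher mean in L26, 2 rose and 4 did not pass. Probe set 1443876_at read 9.82, 9.83 and 9.96 in wild type and 10.73, 10.81 and 10.76 in L26, a rise of 0.90 (SE 0.06) or 1.86-fold. On 1437125_at the values went from 11.53, 11.44 and 11.46 to 11.81, 11.81 and 11.80 (+0.33, SE 0.05). Both separated the groups by more than the spread within either.

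The brightest Camk2a probe set, 1457311_at, read 13.02, 12.98 and 13.06 against 13.12 in each L26 mouse. The groups did not overlap, but the difference of +0.10 (SE 0.05) did not pass. Nor did 1441734_at, with 7.21, 7.26 and 7.22 against 7.32, 7.38 and 7.48 (+0.16, SE 0.06). On the last pair of probe sets wild type replicate 3 stood below all other arrays. Probe set 1442707_at read 11.61, 11.62 and 11.05 in wild type and 11.41, 11.51 and 11.41 in L26 (+0.02, SE 0.14). Probe set 1452453_a_at read 10.01, 10.14 and 9.29 against 9.80, 9.98 and 9.80 (+0.05, SE 0.19). Without wild type replicate 3 their differences were -0.17 and -0.21, and neither passed. As a mean over its 6 probe sets Camk2a differed by +0.26 (SE 0.06) and passed as higher, a call that 1457311_at alone did not give.

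Camk2g and Camk2b encode the gamma and beta subunits. Both Camk2g probe sets fell by similar amounts. Probe set 1423941_at read 11.74, 11.77 and 11.79 in wild type and 11.47, 11.48 and 11.51 in L26 (-0.28, SE 0.05). Probe set 1423942_a_at read 11.54, 11.63 and 11.63 against 11.26, 11.21 and 11.39 (-0.31, SE 0.07). The groups did not overlap on either, but the calls held in only 1 and 2 of the 6 fits that left out 1 array. The lost calls were those without wild type replicate 2 or 3 and without L26 replicate 1 or 2 for both, and also without L26 replicate 3 for 1423941_at. Over all 6 of these fits the differences lay between -0.29 and -0.27 and between -0.37 and -0.28. The single Camk2b probe set, 1448676_at, read 12.16, 12.13 and 12.07 against 12.13, 12.15 and 12.15 (+0.02, SE 0.05), and its groups overlapped.

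The inhibitor genes also differed in L26. Camk2n1 gave calls in both directions. Its brightest probe set, 1456609_at, read 14.20, 14.20 and 14.19 in wild type and 13.96, 13.96 and 13.97 in L26 (-0.23, SE 0.05). This was a small fall with almost no spread within groups (SD 0.006 in both, n = 3). It was not called in any of the 6 fits that left out 1 array, with differences from -0.24 to -0.23. The other, 1440455_at, rose from 8.86, 9.11 and 9.04 to 9.55, 9.67 and 9.67 (+0.63, SE 0.08, 1.54-fold), and this call held in all 6. As a mean of both probe sets the gene had +0.20 (SE 0.05) and did not pass, so the direction of Camk2n1 depended on the probe set. Of 9010 genes with at least 2 probe sets, 19 (0.211%) had calls in both directions. Those 19 were 2.27% of the 837 such genes with any call.

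Camk2n2 has 1 probe set, 1429204_at, which read 10.77, 10.79 and 10.83 in wild type and 10.41, 10.36 and 10.57 in L26. It fell by 0.35 (SE 0.07), without overlap, but was called in only 1 of the 6 fits that left out 1 array, that without L26 replicate 3. With each other array left out in turn it was not called, and its difference over all 6 fits lay between -0.41 and -0.31.

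Among the other kinases, Camk1, the gene of CaMKI-alpha, fell on 1417604_at from 9.17, 9.20 and 9.14 to 8.69, 8.76 and 8.80 (-0.42, SE 0.06), and every L26 value was below every wild type value. Its second probe set, 1417605_s_at, whose probes are shared with other transcripts, read 8.94, 9.03 and 8.84 against 8.56, 8.72 and 8.65. That difference of -0.29 (SE 0.07) had the same sign and did not pass. It passed as lower in 5 of the 13 alternatives run, which were repeated quantile normalization, median centring, removal of the 40% with the lowest means, eBayes trend and robust settings, and a threshold of 0.1. Camkk2, the gene of CaMKK-beta, which also phosphorylates AMP-activated kinase, had lower means on all 4 probe sets, from -0.24 to -0.12, and none passed. The most distant groups were those of 1455401_at, with 10.23, 10.37 and 10.27 in wild type and 10.04, 9.96 and 10.14 in L26 (-0.24, SE 0.07). On 1424474_a_at the groups were also apart, at 11.20, 11.22 and 11.31 against 11.09, 11.17 and 11.05 (-0.14, SE 0.06). The remaining pair overlapped.

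**Figure D2:**
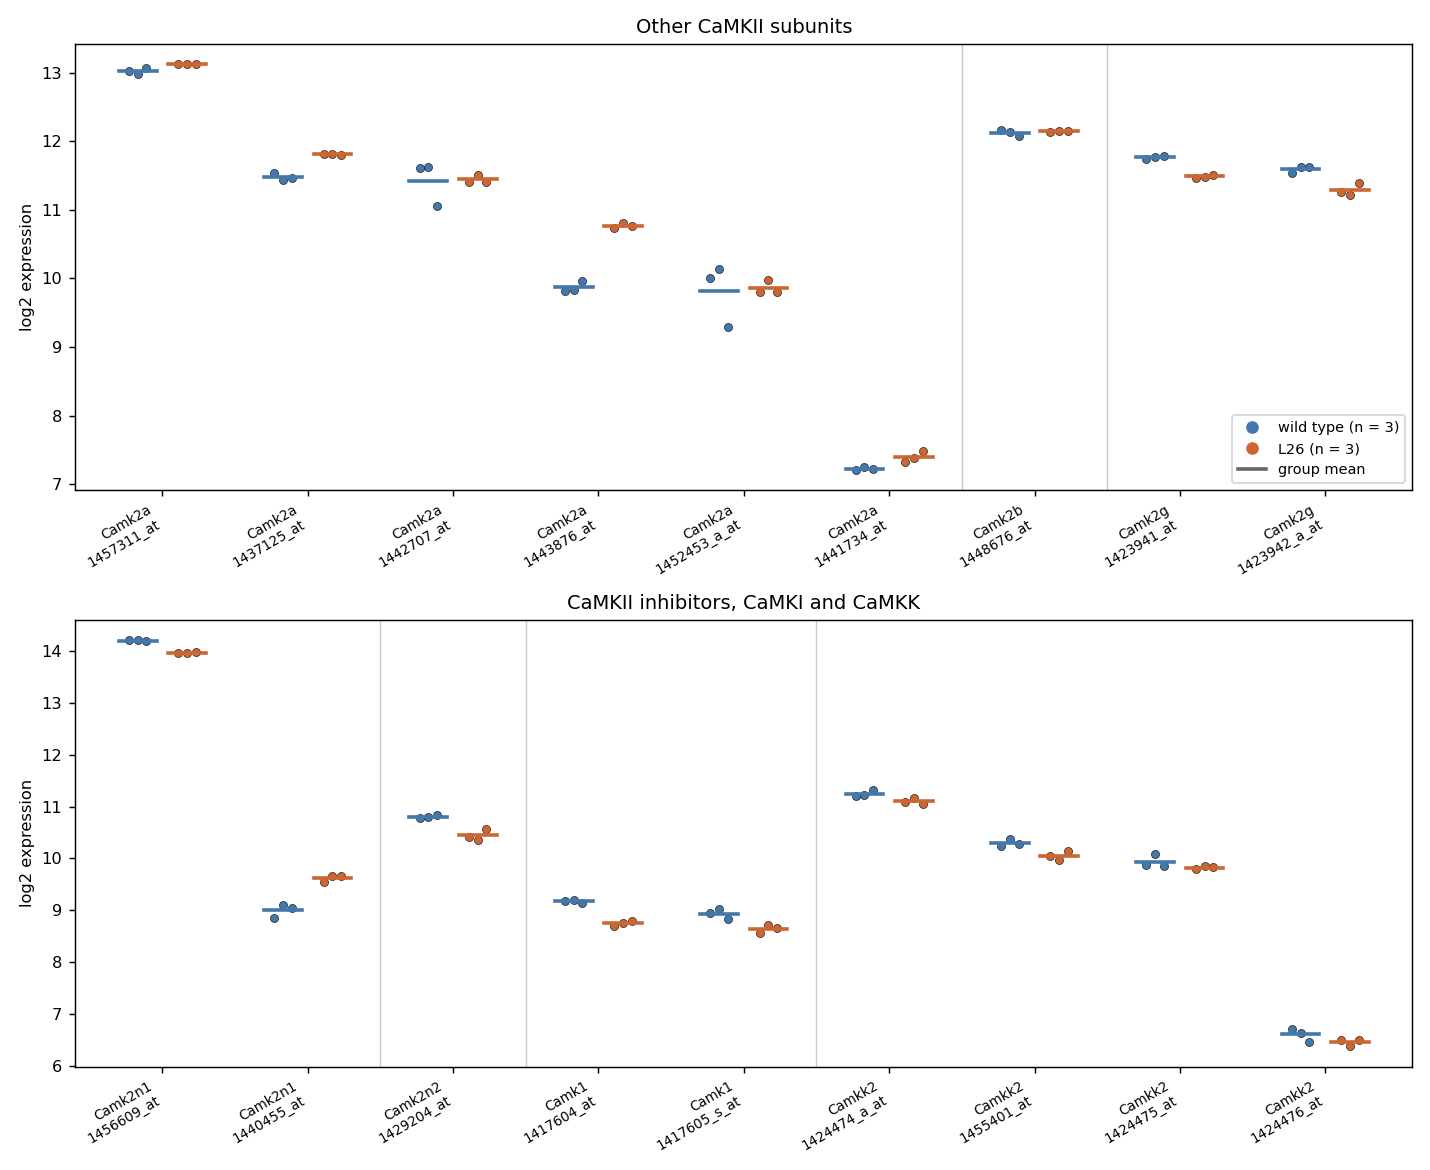
Log2 expression (vertical axis) of the other member probe sets in 3 wild type and 3 L26 hippocampi, with points for single arrays and bars for group means; the upper panel holds Camk2a, Camk2b and Camk2g and the lower panel Camk2n1, Camk2n2, Camk1 and Camkk2. Camk2a 1443876_at and Camk2n1 1440455_at are higher in L26 by 0.90 and 0.63, and wild type replicate 3 lies below the other arrays on 1442707_at and 1452453_a_at of Camk2a.

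The annotation lists, for 28 of the 30 probe sets, the GenBank or RefSeq entry from which the target was taken, and the type of entry was read from the form of the accession. RefSeq mRNA and cDNA entries were recognised by set accession forms. Every other listed entry was counted as an expressed sequence tag, a single read of a cDNA clone, which was not checked. The 19 probe sets so counted included 5 that fell, 3 that rose and 11 that did not pass. Of 5 built on cDNA entries 2 fell, of 4 built on RefSeq mRNA entries 2 fell, and no probe set of these kinds rose. For Camk4 both probe sets that fell were counted as built on expressed sequence tags, and the 2 built on cDNA entries were higher in mean and did not pass. In Camk2d the arrangement was the other way round by this counting. Those that fell were built on a cDNA entry, a RefSeq mRNA entry and an unlisted target. The 4 counted as built on expressed sequence tags did not pass. Of these 4, 1439168_at and 1456844_at were also lower without overlap, and 1456844_at and 1444031_at were below the lower quartile of level. Which exon or transcript end each probe set reads was not examined here.

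**Figure D3:**
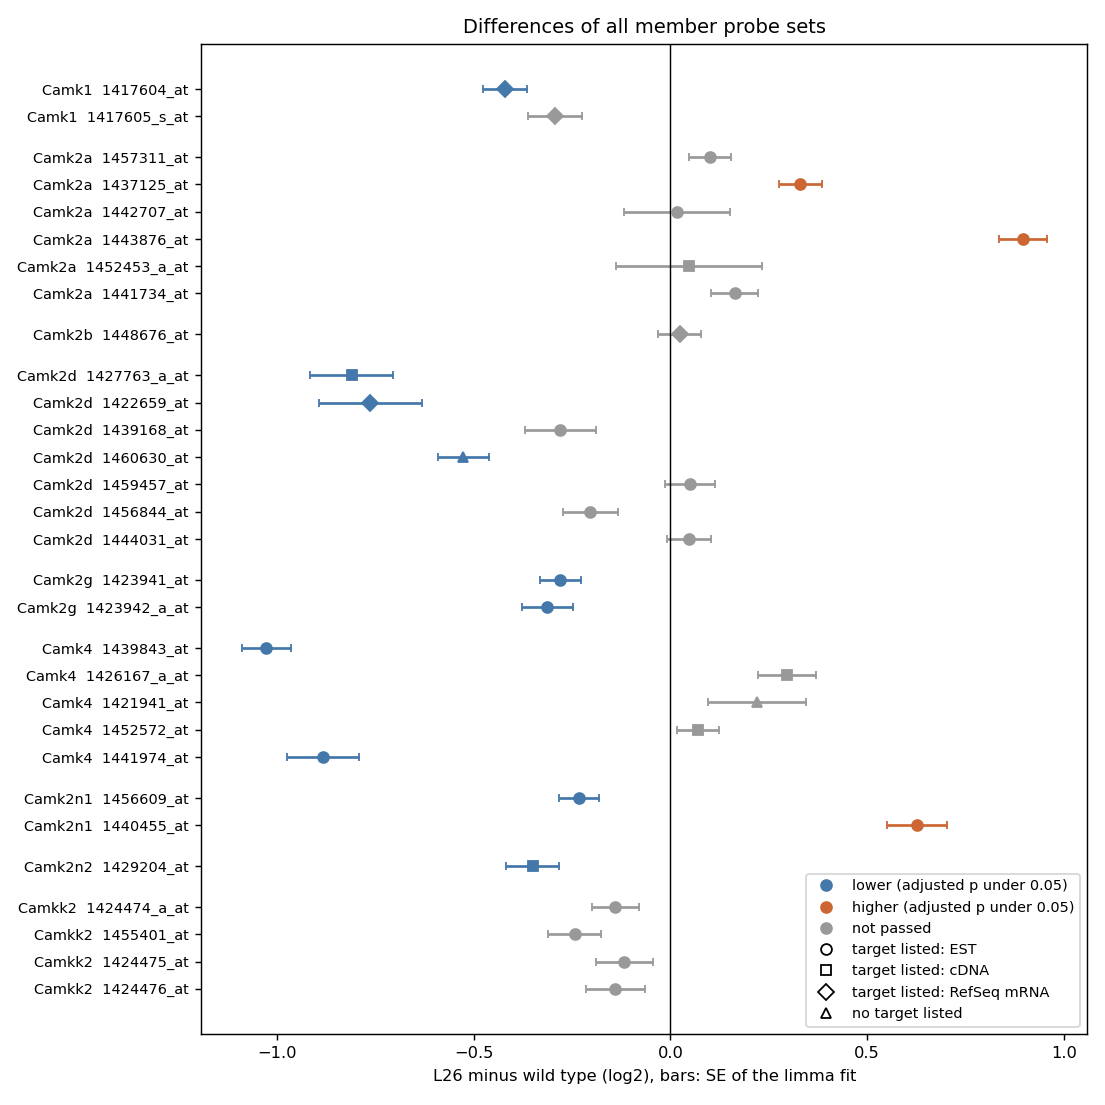
Difference of L26 and wild type on the log2 scale (horizontal axis) for all 30 probe sets, grouped by gene. Bars are the SE of the limma fit. Colour gives the call and the marker shape the kind of target entry. EST stands for every listed entry not recognised as RefSeq mRNA or cDNA. Differences range from -1.03 (Camk4 1439843_at) to +0.90 (Camk2a 1443876_at), and Camk4, Camk2d, Camk2a and Camk2n1 each span more than 0.80.

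DREAM binds a downstream regulatory element (DRE) whose core is GTCA, and promoter sequences are shown for 3 genes with a probe set that fell. RefSeq promoters of assembly GRCm38.p6, from 250 bases before to 50 bases after the gene start, were at hand for 6 of the 10 genes. The letters GTCANNG, a loosened form of the element, were searched on both strands and occurred in 42.3% of 32851 promoters of this length. Of the 6 genes, Camk1 and Camk2d each had 1 match. It is in capitals below, on the reverse strand for Camk1. In both genes the match lies before the gene start, from base -66 in Camk1 and from base -176 in Camk2d. Camk2n2, Camk2b, Camkk1 and Camkk2 had 0 matches in this window. The cyclic AMP response element TGACGTCA, the site of CREB, overlaps the GTCA core by its letters. It was in 1.79% of promoters and in 0 of the 6. Its half-site TGACG, whose first 4 letters are GTCA on the other strand, was in 20.8% of promoters and occurred once each in Camk1, Camk2n2 and Camkk1. These matches describe letters only.
Camk2d, chr3:126596701-126597000, plus strand: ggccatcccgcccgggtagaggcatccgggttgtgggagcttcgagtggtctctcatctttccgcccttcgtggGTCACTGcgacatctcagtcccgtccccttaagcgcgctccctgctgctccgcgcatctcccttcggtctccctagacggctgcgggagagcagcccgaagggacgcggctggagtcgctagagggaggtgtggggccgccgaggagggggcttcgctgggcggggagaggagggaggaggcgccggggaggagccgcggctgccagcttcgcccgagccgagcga
Camk1, chr6:113343873-113344172, minus strand: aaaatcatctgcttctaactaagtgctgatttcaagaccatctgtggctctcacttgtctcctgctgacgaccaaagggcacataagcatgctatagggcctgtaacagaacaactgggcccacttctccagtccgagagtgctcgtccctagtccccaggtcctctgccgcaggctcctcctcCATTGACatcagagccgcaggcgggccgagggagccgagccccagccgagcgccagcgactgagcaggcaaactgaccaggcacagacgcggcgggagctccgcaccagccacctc
Camk2n2, chr16:20621229-20621528, minus strand: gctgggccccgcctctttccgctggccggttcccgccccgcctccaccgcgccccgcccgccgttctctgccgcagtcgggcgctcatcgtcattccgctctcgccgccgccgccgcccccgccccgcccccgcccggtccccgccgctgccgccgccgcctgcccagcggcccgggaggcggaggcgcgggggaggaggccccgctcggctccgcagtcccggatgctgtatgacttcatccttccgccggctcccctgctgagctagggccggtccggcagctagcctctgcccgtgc

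Other genes of the pathway were taken with 1 probe set per gene. Of 54 measured genes in 5 lists 4 fell, 2 rose and 48 did not pass, where 2.57% of all 18193 genes fell and 2.63% rose. The 2 that rose are thus near the share over all genes, and the median difference was -0.01 against 0.01. With arrays centred on their medians 7 fell and 1 rose, and in each fit that left out 1 array 2 fell and 1 or 2 rose. Adjusted p-values in the following lists are from limma over all genes. The lists were chosen with earlier results of these data known, so these p-values are given as description only.

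Among targets of the nuclear CaM kinase branch and of the CaMKK branch, 2 of 15 fell, 0 rose and 13 did not pass. Prkaa2 is the gene of an AMP-activated kinase alpha subunit that CaMKK-beta phosphorylates. It read 9.89, 10.14 and 9.96 in wild type and 8.80, 9.10 and 9.08 in L26 (-1.0, SE 0.09, limma adjusted p = 0.000729). Its other probe sets had -0.55 and -0.62. Mef2c, a transcription factor controlled by CaM kinases through class IIa deacetylases, fell by 0.55 (SE 0.06, limma adjusted p = 0.00106), and its 4 other probe sets ranged from -0.83 to -0.42. Both genes were lower in 3 of 3 L26 mice than in any wild type mouse. Creb1, the classical CaMKIV substrate, had +0.10 (SE 0.06, limma adjusted p = 0.352) and did not pass. Nor did Prkaa1, the gene of the other AMP-activated kinase alpha subunit (-0.04, SE 0.08, limma adjusted p = 0.814).

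Of 11 synaptic substrates and partners of CaMKII, Gria1 rose, 0 fell and 10 did not pass. Gria1, the AMPA receptor subunit that CaMKII phosphorylates, read 12.69, 12.74 and 12.60 against 13.05, 13.01 and 13.01 (+0.35, SE 0.06, limma adjusted p = 0.00948). All L26 values were the higher ones, but the second Gria1 probe set had +0.09 and did not pass. Some genes that did not pass had other probe sets with larger differences. These ran from +0.10 to +0.57 for Grin2b, from -0.71 to +0.16 for Syn2 and from -0.43 to +0.18 for Map2. With the mean of all its probe sets Grin2b passed as higher.

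Of 12 calcineurin and other phosphatase genes, which act against the kinases, 2 fell and 10 did not pass. These were Ppp3cc, a catalytic subunit gene (-0.23, SE 0.05, limma adjusted p = 0.0459), and Rcan2, a calcineurin regulator gene (-0.23, SE 0.06, limma adjusted p = 0.0491). Neither was called in any of the 6 fits that left out 1 array, and over all alternatives their adjusted p ranged from 0.026 to 0.376 and from 0.00908 to 0.156 (limma). The other probe set had +0.01 for Ppp3cc and -0.30 for Rcan2.

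Of 12 further calmodulin-dependent and related kinases, Mylk rose (+0.25, SE 0.06, limma adjusted p = 0.0398) and 11 did not pass. Mylk encodes myosin light chain kinase of smooth muscle. The other Mylk probe sets had +0.09 and +0.14 and did not pass. The Mylk call was kept in 1 of the 6 fits that left out 1 array, that without L26 replicate 1. It was also lost with a replicate block, with median centring and with the mean of the gene's probe sets. The adjusted p of Mylk over all alternatives ranged from 0.0263 to 0.139 (limma). The mean of the vascular markers was higher in the same L26 arrays, from 8.75 to 8.84 against 8.38 to 8.47, with 9 of 16 markers that rose. The part of vessels in the Mylk value was not tested. Of the 4 measured calmodulin buffers and relatives 0 fell, 0 rose and 4 did not pass. Gap43 had -0.18 (SE 0.06, limma adjusted p = 0.106) and Nrgn, the gene of neurogranin, which holds calmodulin in dendrites, +0.22 (SE 0.07, limma adjusted p = 0.115).

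**Figure D4:**
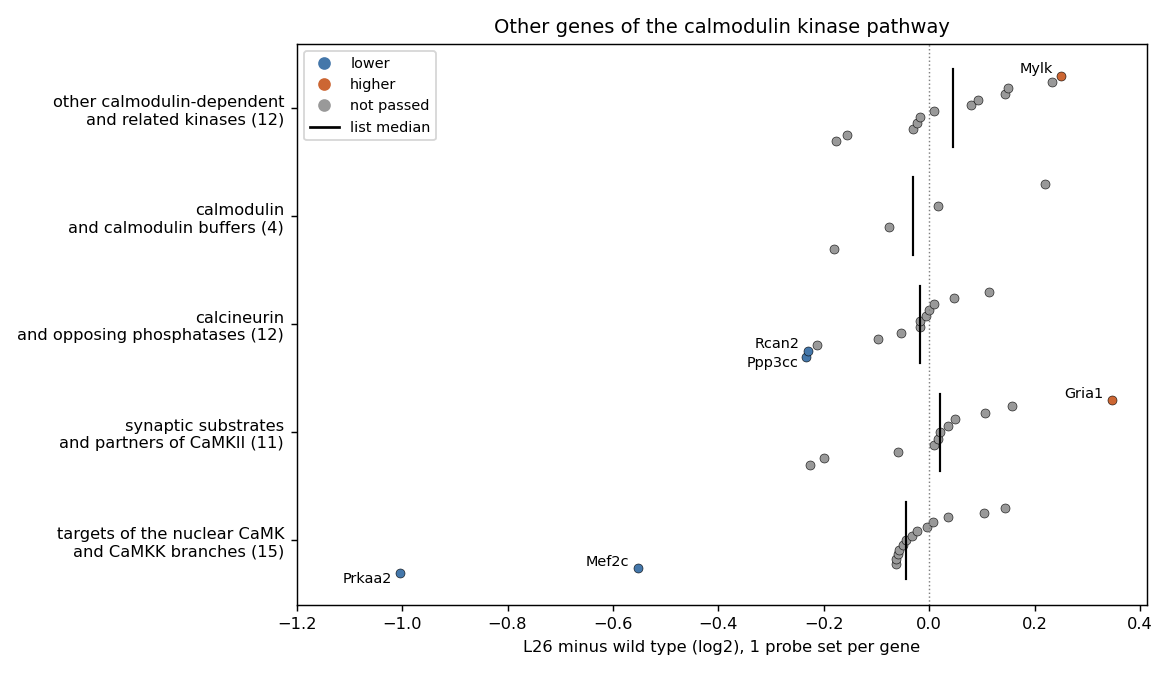
Difference of L26 and wild type on the log2 scale (horizontal axis) for 54 other genes of the pathway, 1 point per gene in rows by list with the number measured; black bars are list medians and named points passed the threshold. Prkaa2 (-1.0) and Mef2c (-0.55) stand apart from the rest, which lie between -0.23 and +0.35.

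Markers of other cells and of bordering regions moved with the group on the same arrays. In bulk tissue fewer cells of a type and less RNA per cell cannot be told apart. Of 15 oligodendrocyte markers 11 rose and 0 fell, and their mean per array was 10.79 to 10.86 in wild type mice and 11.03 to 11.26 in L26 mice. Of 16 vascular markers 9 rose and 0 fell. Of 11 markers of cortex and subiculum 6 fell and 0 rose, and their mean per array was 9.52 to 9.56 in wild type mice but 9.24 to 9.30 in L26 mice (-0.28). The means of the pyramidal cell markers were higher in L26 by 0.12 for CA1, where 2 of 6 rose and 0 fell, and by 0.15 for CA3, where 3 of 9 rose and 1 fell. Dentate granule markers (3 of 10 rose, 1 fell) had a mean difference of +0.09 and interneuron markers (2 of 11 fell, 0 rose) one of -0.07. Each of these 7 lists had exact permutation p = 0.1, the smallest this design allows (0.15 adjusted over 12 lists).

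Of 12 astrocyte markers 1 fell, 0 rose and the mean differed by +0.05, which also separated the groups (exact permutation p = 0.1). The other lists overlapped between groups. Of 11 microglia markers 3 rose and 1 fell (+0.03, exact permutation p = 0.7), and of 12 choroid plexus and ependyma markers 2 rose and 0 fell (+0.33, exact permutation p = 0.4). Striatal markers (2 of 9 fell, 1 rose) differed by -0.11 (exact permutation p = 0.3) and thalamic markers (3 of 8 fell, 1 rose) by 0.005 (exact permutation p = 1). The part of any of these cell types or regions in the values of the kinase genes was not tested.

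**Figure D5:**
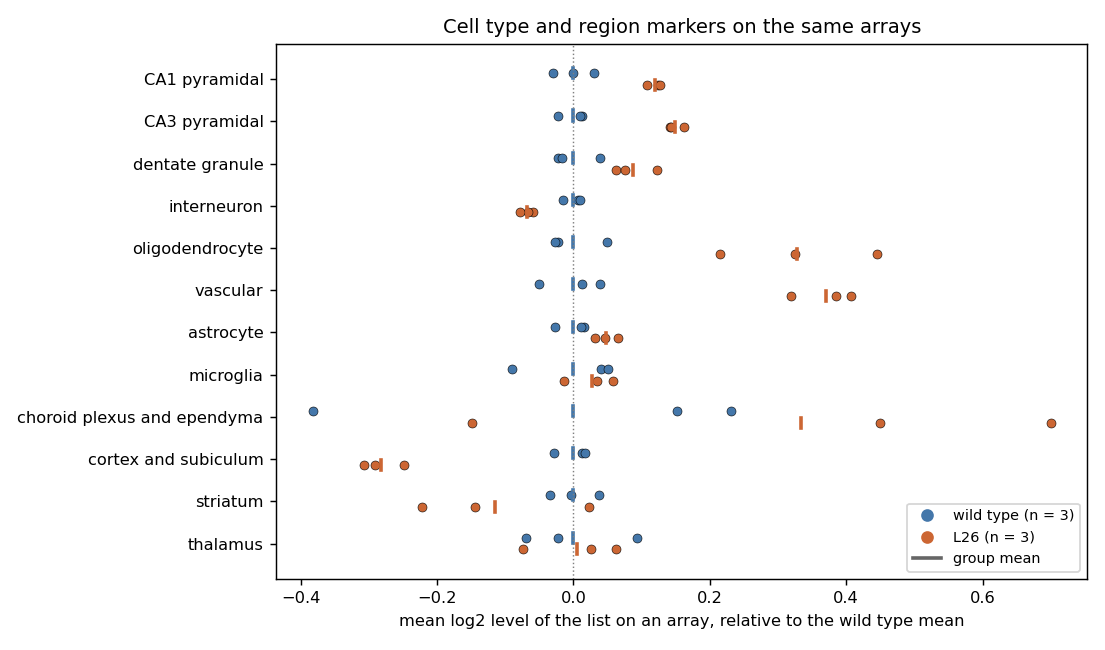
Mean log2 level of each marker list on each array (horizontal axis), relative to the wild type mean of that list, for 3 wild type and 3 L26 hippocampi. Vascular (+0.37) and oligodendrocyte (+0.33) means lie higher in all L26 arrays and cortex and subiculum means lower (-0.28), while choroid plexus and ependyma vary widely within both groups.

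Profiles of other genes over the 6 arrays were compared with the brightest Camk4 and Camk2d probe sets by Pearson correlation over 18184 genes, as a description in which the group difference itself takes part. The closest to Camk4 was Kcnv1, a gene of a modulatory potassium channel subunit (r = 0.9991), which read 9.69, 9.68 and 9.67 in wild type and 9.22, 9.31 and 9.28 in L26. Next came Cbln4, of the cerebellin family of synaptic organizers (r = 0.9982), with a difference of -0.80, and Brinp3 (r = 0.9979), with -0.87. The closest to Camk2d was Kcnf1, another modulatory potassium channel subunit gene (r = 0.9960), at 9.03, 8.90 and 8.73 in wild type and 8.37, 8.41 and 8.32 in L26. It had wild type replicate 3 as the lowest of its group, like Camk2d. Dnajc25 (r = 0.9949) and Vrk1 (r = 0.9943) followed with differences of -0.10 and -0.13 that did not pass. All points share the same 6 arrays and their scaling.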

How the data were processed

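Per the submitters' processing notes, the authors made the deposited log2 expression values by RMA in the affy package (versions not given in the sources used here). As a method, RMA subtracts background, makes the arrays' probe distributions equal and reduces each probe set to 1 value. Such values hold no detection calls and can understate changes of dim transcripts. After removal of 64 AFFX controls, 45037 probe sets were fitted with limma 3.58.1 in R 4.3.3 (lmFit, eBayes, L26 minus wild type, two-sided) with no filter on level. P-values were adjusted by Benjamini-Hochberg over all probe sets, or over 18193 genes, each represented by its probe set with the highest mean over the 6 arrays, with a threshold of 0.05. SE is from the fit and SD is over 3 arrays. Probe sets were named through the platform annotation, with 1 symbol only. The arrays' number limits the precision, and levels of different probe sets were not compared.

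Every member probe set, the Kcnip3 probe sets, each pathway gene past the threshold (otherwise the 2 with the smallest p of a list), and the 3 genes most like Camk4 and Camk2d were named. Creb1 and Prkaa1 were added after their values were seen. The members and lists were chosen with earlier results of these data known. The code was tested on simulated data. Alternatives were a replicate block, each array left out in turn, repeated quantile normalization, median centring, array weights, leaving out the 40% of probe sets with the lowest means, eBayes with trend and robust settings, a threshold of 0.1, the mean of a gene's probe sets, and removal of probe sets ending in _x_at or _s_at.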

Additional observations from a re-analysis of the deposited data

How the results depend on the processing

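Each called member probe set kept its sign in every alternative. The replicate numbers do not pair the animals as far as the labels say (correlations of same-numbered deviations -0.04, -0.07 and 0.15). With the replicate number as a block 7 member probe sets fell and 3 rose, 5 member genes fell, and 2 pathway genes fell and 1 rose. The call of both Camk2g probe sets and of Camk2n1 1456609_at was lost there. Calls gained were those of Camk4 1426167_a_at (higher) and Camk1 1417605_s_at (lower) in 5 settings each and of Camkk2 1455401_at (lower) in 2, eBayes trend and robust settings and the threshold of 0.1. Leaving out each array in turn gave 6 to 8 member probe sets that fell and 3 to 4 that rose, 3 to 5 member genes that fell and 0 to 0 that rose, and 2 to 2 pathway genes that fell and 1 to 2 that rose. Pathway genes that fell numbered 7 with median centring (1 rose), 7 with eBayes trend and robust settings, and 7 at a threshold of 0.1. Of member genes 1 rose, Camk2a, with the mean of all probe sets. Centring moved the marker differences to 0.0894 (CA1), 0.119 (CA3), -0.0982 (interneuron), 0.0175 (astrocyte) and -0.312 (cortex and subiculum), and leaving out 1 array gave 0.0389 to 0.0864 for astrocyte, -0.364 to -0.274 for cortex and subiculum, 0.142 to 0.575 for choroid plexus and ependyma, -0.183 to -0.0611 for striatal, -0.0186 to 0.0518 for microglia and -0.0298 to 0.0515 for thalamic markers, the last pair changing sign. No probe set or gene with a call passed in the opposite direction under any of these alternatives, and the cause of the lost calls was not tested. The number of arrays limits what could be detected.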
